A study of Homo sapiens with 8 samples.

Results

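Genes of cell adhesion and axon guidance were taken by symbol: cadherins, protocadherins, CELSR and FAT cadherins, semaphorins, plexins, neuropilins, ROBO receptors and SLIT ligands, EPH receptors and ephrins, netrins with their UNC5 and DCC receptors, integrins, L1CAM, NCAM, laminins and collagens. They accounted for 78 of the 4945 genes and 116 of the 9962 single-base N1-methyladenosine (m1A) positions in the table, as 208 pairs of a position and a gene. Neuroblastoma cells had received small interfering RNA against TRMT6 (siTRMT6) or a control, and m1A was enriched with an antibody from fragmented polyadenylated RNA. The values are reads at listed positions in 2 siTRMT6 and 2 control libraries, taken as the m1A immunoprecipitates. The titles of the samples call the cells SK-N-BE, whereas the cell line field says SK-N-AS. Both are neuroblastoma lines and the labels do not settle which was used. Nothing says that the replicates came from separate cultures, so p-values measure only the spread between these libraries.

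Growing axons and migrating neural crest cells are steered by ligands such as netrins, SLITs, semaphorins and ephrins, which bind DCC and UNC5, ROBO, plexin and EPH receptors. Cadherins, protocadherins, NCAM1 and L1CAM hold neural cells to each other, while integrins bind laminins and collagens of the matrix. TRMT6 and the catalytic subunit TRMT61A form a methyltransferase that makes m1A in tRNAs and in RNA stems resembling them. Neuroblastoma arises from the sympathetic branch of the neural crest.

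Before any level is read, the base at the listed positions matters, since m1A is a modified adenosine. A start window of RefSeq (GRCh38.p14, 250 bases before to 50 after a gene start) covered 511 of the 9962 positions. At all 151 of these on the plus strand the transcript carried A. At all 360 on the minus strand the transcript carried T, so in all 511 the A lay on the plus strand of the genome. Of the adhesion and guidance positions 4 were covered, and their sequences are shown, 5′ to 3′ on the strand of the transcript, because they carry this pattern in the genes described here; the capital is the listed base.
COL6A2: gctggacacctcggAgagcgtcaccatgc
UNC50: gtcgaggctgtagcAggactccaggtgag
PCDH9: ccctcgcgccgggcTgcggccgcccgcgc
PLXND1: cgccgcctccgggcTcccggctcccggcc
The COL6A2 stretch is chr21:46112013-46112041 and the UNC50 stretch chr2:98608703-98608731, both on the plus strand. Their start windows are those of other genes, LOC124905043 for the COL6A2 position and COA5 for the UNC50 position. The PCDH9 stretch is chr13:67230427-67230455 and the PLXND1 stretch chr3:129606689-129606717, both on the minus strand. COL6A2 encodes a chain of collagen VI, PCDH9 a protocadherin of neurons and PLXND1 a semaphorin receptor. The COL6A2 position, in coding sequence, had 6 reads in control 1, and the PCDH9 position, in the 5' UTR, had 9 reads in siTRMT6 2. The PLXND1 position, also in the 5' UTR, had 7 reads in siTRMT6 1. UNC50 matches the symbol rule but encodes a membrane protein unrelated to the UNC5 receptors; its position, in the 5' UTR, had 8 reads in control 1.

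Among the 116 positions, 75 lay on the plus strand (64.7%, against 74.1% of the remaining positions) and 41 on the minus strand. The minus-strand genes include PCDH1, CELSR3, L1CAM, LAMB1, LAMB2, SLIT3, ROBO1, ITGB5, UNC5C, PLXNB2 and SEMA6A. UNC5B, UNC5A, NCAM1, PLXNA1, CELSR2 and LAMC1 lie on the plus strand. Whether the minus-strand positions outside the start windows also fall on T was not tested. Values of minus-strand genes are therefore reads at a listed base, which may not be an adenosine of the transcript.

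Reads at the adhesion and guidance positions ran from 5 to 28 a position, with a median of 10 against 9 over all positions. siTRMT6 1 had reads at 41 of them and siTRMT6 2 at 19, against 13 in control 1 and 44 in control 2. As a share of each library's listed positions this was 1.14% in siTRMT6 1 (95% Wilson interval 0.839 to 1.54) and 1.34% in siTRMT6 2 (0.862 to 2.09), against 1.59% in control 1 (0.930 to 2.70) and 1.03% in control 2 (0.769 to 1.38). The condition groups overlapped, and siTRMT6 differed from control by -0.0688 percentage points (exact permutation test over 2 libraries against 2, two-sided p = 1.0; the smallest this design allows is 0.333). The listed reads in all genes were 40771 in siTRMT6 1 and 13812 in siTRMT6 2, against 8655 in control 1 and 46007 in control 2; these totals are not the sequencing depth, and the intervals cover counting error only.

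Of the 116 positions, 115 had reads in 1 library. The exception was SEMA6A, a transmembrane semaphorin, with 9 reads in siTRMT6 1 and 5 in siTRMT6 2 at position 116446566 of chromosome 5 (3' UTR) and none listed in the controls. No adhesion or guidance position had reads in both conditions, as against 14 in the whole table. The authors' deposited table therefore gave each of them a large fold: 59 of the 116 (50.9%) were listed as higher in siTRMT6, against 49.6% of all positions, and 57 (49.1%) as lower, against 50.4%. Both shares lay near the background of the table. It gave the same fold and adjusted p to 20 reads in siTRMT6 1 (PLXNA1, 127017779) as to 20 in siTRMT6 2 (L1CAM, 153862302). Its p-values thus appear to pool the replicates, though how they were computed is not stated.

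Summed per gene, UNC5B, NCAM1, PLXNA1, PCDH1, UNC5A and CELSR2 held the most reads. The genes whose positions were not all shared with other clustered protocadherins numbered 43, and 21 of them (48.8%) had listed reads in both conditions, against 39.1% of all genes. Another 11 had siTRMT6 reads only (27% of all genes did) and 11 had control reads only (33.9% of all genes did). Positions of these genes differ in number, and a gene with more of them has more chances to appear in both conditions. The sources do not say if a listed 0 stands for absent reads or for a failed call.

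**Figure D1:**
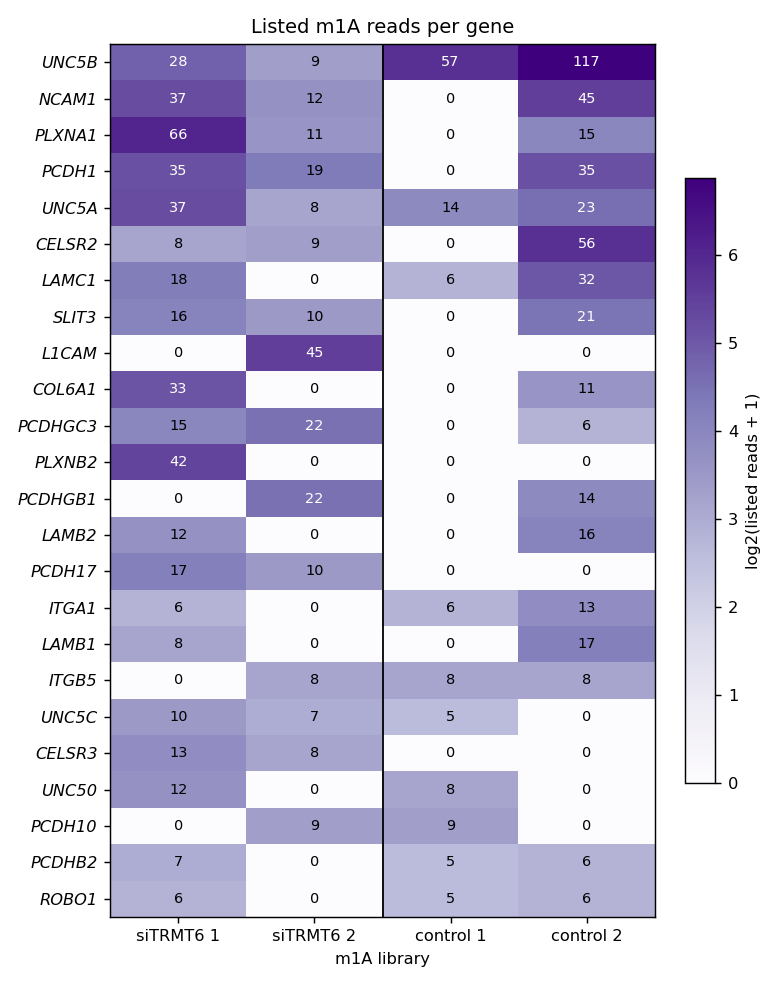
Listed m1A reads per gene (number printed in each cell, colour on a log2(reads + 1) scale) in the siTRMT6 and control libraries, for the 24 genes with most reads, leaving out clustered protocadherins whose positions are all shared. UNC5B has 28 and 9 siTRMT6 reads and 57 and 117 control reads, and L1CAM has reads in siTRMT6 2 only.

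When the gene totals of the 4 libraries were tested with edgeR's quasi-likelihood test, 975 genes had enough counts to be tested and 0 (0%) passed an adjusted p of 0.05, with 128 at an unadjusted p under 0.05. Of the 78 adhesion and guidance genes 13 passed the filter and 0 were called. DESeq2 also called 0 of these 13. PCDH17 was the member at an unadjusted p under 0.05 in edgeR (adjusted p = 0.379); it passed the filter through its siTRMT6 reads alone, so this p says little of a difference. The median log2 value of the 13 was 0.51 and that of all 975 was 0.27 on the same scale, so fitted values below are to be read against 0.27. Input libraries are not used here, so fewer copies of a transcript and less m1A per copy cannot be told apart, nor can a change in the mix of cells. TRMT6 itself had 0 listed positions, which leaves the silencing unchecked in these reads.

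Netrin receptors held the most reads. UNC5B, a repulsive netrin receptor that can also trigger death of cells without ligand, had 28 and 9 reads in siTRMT6 1 and 2, against 57 and 117 in control 1 and 2, over 11 positions on chromosome 10. Per 10000 listed reads of a library this was 6.87 and 6.52 in siTRMT6, against 65.9 and 25.4 in the controls. Both siTRMT6 libraries were below both controls on either scale, and 8 of the 11 positions had control reads (50.4% of all positions were listed as lower). The fitted log2 value was -2.15 ± 1.02 (SE; edgeR adjusted p = 0.743), which did not pass the threshold.

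The siTRMT6 reads of UNC5B lay near the start of the transcript, and the control reads were spread over it. siTRMT6 1 had 12 reads at 71280000 and 16 at 71284792, siTRMT6 2 had 9 at 71280004, and control 1 had 14 at 71280006. The bases from 71280000 to 71280006 lie within 6 nt, and their summed log2 value was 0.59 after scaling to the total of listed reads in siTRMT6 and in control. Further control reads lay in coding sequence, with 26 at 71293805, 21 at 71286792 and 16 at 71213063 in control 2 and 20 at 71291690 in control 1. In the 3' UTR no siTRMT6 read was listed, against 28 reads at 71301348 and 26 at 71302452 in control 2 and 23 at 71299440 in control 1.

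UNC5A, another netrin receptor of neurons, had 37 and 8 reads in the siTRMT6 libraries, against 14 and 23 in the controls, over 7 positions on chromosome 5. The groups overlapped and the fitted log2 value was 0.24 ± 1.36 (SE; edgeR adjusted p = 0.9997). Within 117 nt of its coding sequence siTRMT6 1 had 17 reads at 176874476, against 14 in control 1 at 176874359 and 16 in control 2 at 176874425. UNC5C had 10 and 7 reads in siTRMT6 1 and 2 and 5 in control 1, with none listed in control 2. Taken as a family, UNC5 receptors had 21 positions, 9 higher and 12 lower in siTRMT6 in the authors' deposited table. Of all positions 49.6% were higher. No position was listed for the netrins (6 RefSeq symbols) or for DCC.

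**Figure D2:**
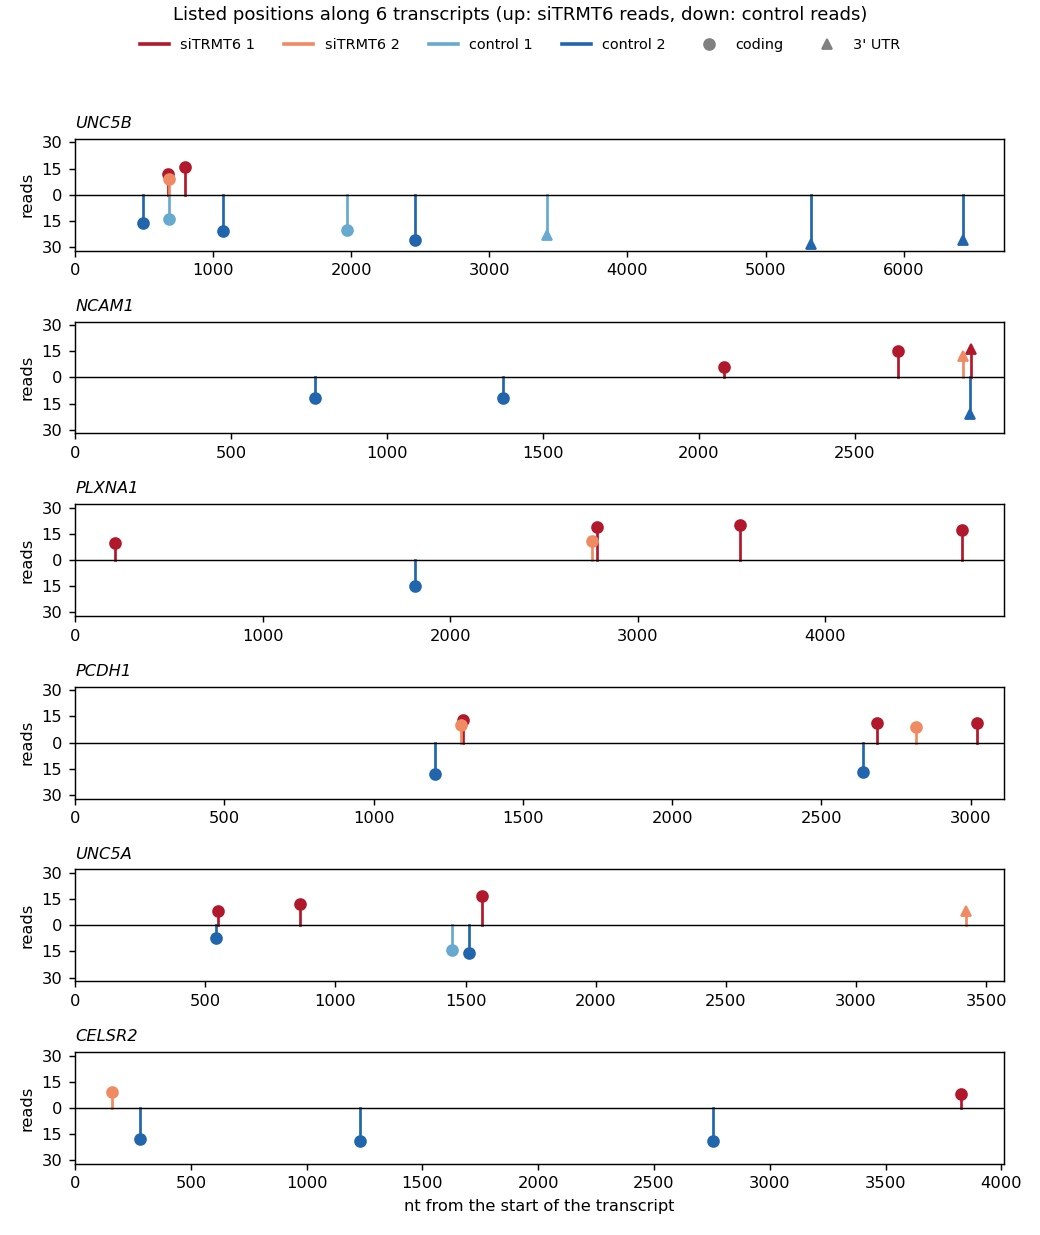
Listed positions along 6 transcripts, in nt from the transcript start, with siTRMT6 reads drawn upward and control reads downward; colours mark the libraries and symbols the transcript region. UNC5B has siTRMT6 reads between 676 and 794 nt only and control reads across the transcript, while PCDH1 has reads of 3 libraries close together at 2 places.

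Plexins, the receptors of semaphorins, had 8 positions higher (49.6% of all positions were) and 2 lower in the authors' deposited table. Of the 8, 7 had their reads in siTRMT6 1, and without that library 1 position with siTRMT6 reads was left, against 2 with control reads. PLXNA1, which transmits semaphorin signals together with neuropilins, had 66 and 11 reads in siTRMT6 1 and 2, against 15 in control 2 and none listed in control 1. Both siTRMT6 values exceed those of the controls per 10000 listed reads, at 16.2 and 7.96 against 0 and 3.26. In raw reads the groups overlapped, with 11 in siTRMT6 2 against 15 in control 2. The fitted log2 value of the gene total was 2.60 ± 2.25 (SE; edgeR adjusted p = 0.9997). It ran from 1.31 without siTRMT6 1 to 8.01 without control 2, a fit in which the median of all genes was itself 6.44. That fit left PLXNA1 no listed control reads, so 8.01 is not a measured fold.

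Within PLXNA1, siTRMT6 1 had 19 reads at 127014736 and siTRMT6 2 had 11 at 127014629 of chromosome 3, and no control read was listed between them. The positions are 107 nt apart in the genome and 26 nt apart in the coding sequence of the transcript. With all libraries kept, no fold is given for places without listed control reads. The reason is that the lowest number listed at an adhesion or guidance position was 5, and fewer reads may have gone unlisted. Of 493 joined regions tested with edgeR (positions within 200 nt), 0 (0%) were called, with 126 at an unadjusted p under 0.05. The PLXNA1 region was the lowest of the 10 adhesion and guidance regions tested (edgeR adjusted p = 0.0562). This region passed the filter through its siTRMT6 reads alone. The filter favours regions with reads in both replicates of a condition, so this adjusted p is too small as evidence for a single gene.

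PLXNB2 had 25 reads at 50285882 (coding sequence) and 17 at 50275696 (3' UTR) of chromosome 22 in siTRMT6 1, with none listed in the other libraries. PLXND1 had its 7 siTRMT6 1 reads near the transcript start, and PLXNA4 had 5 in control 2 at 132577168 of chromosome 7. Among the ligands, SEMA4C had 9 reads in siTRMT6 1 and SEMA6A the 14 reads given above. NRP1, a neuropilin that binds class 3 semaphorins, had 6 reads in siTRMT6 1 and 6 in control 2, 154486 nt apart in the genome. All plexin reads listed in the controls came from control 2.

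SLIT3, a ligand of ROBO receptors, had 16 and 10 reads in siTRMT6 1 and 2 and 21 in control 2, all in its 3' UTR on chromosome 5. The siTRMT6 2 position at 168663803 lay 45 nt from the control 2 position at 168663848, with a summed log2 value of -1.07 on the scale of listed reads. ROBO1 had 6 reads in siTRMT6 1 at 78636051, 6 in control 2 at 78636034 (17 nt away, coding sequence of chromosome 3) and 5 in control 1 at 79019229 in the 5' UTR. EPH receptors and ephrins, which signal at cell contacts in both directions, had low numbers. EPHA6 had 6 reads in siTRMT6 1, against 5 each for EPHA5 and EPHB3 and 9 for EFNB1 in control 2. The EPHA5 position was also listed for EPHA5-AS1, a non-coding transcript of the opposite strand, and how reads were divided between strands is not stated.

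Adhesion molecules at the neuronal surface differed in which libraries listed them. NCAM1, the neural cell adhesion molecule, had 37 and 12 reads in siTRMT6 1 and 2 and 45 in control 2 on chromosome 11, with none listed in control 1. Its fitted log2 value was 0.51 ± 2.30 (SE; edgeR adjusted p = 0.9997). In the 3' UTR, siTRMT6 1 had 16 reads at 113275472 and siTRMT6 2 had 12 at 113275445, beside 21 in control 2 at 113275468, a summed log2 of 0.42. Those 3 libraries thus had reads within 27 nt. L1CAM, which promotes neurite outgrowth, had 25 reads at 153865135 (coding sequence) and 20 at 153862302 (3' UTR) of chromosome X in siTRMT6 2, and none listed elsewhere. All 45 reads came from 1 library.

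Protocadherins outside the clusters had 9 positions higher and 5 lower in the authors' deposited table (49.6% of all positions were higher). PCDH1 had 35 and 19 reads in siTRMT6 1 and 2 and 35 in control 2, all in coding sequence. At 141865182 to 141865273 of chromosome 5, siTRMT6 1 had 13 reads and siTRMT6 2 had 10, against 18 in control 2, a summed log2 of 0.36. At 141863664 to 141863842 the numbers were 11 and 9, against 17, a summed log2 of 0.24. The same 3 libraries thus covered both places, with similar ratios at the joining distance of 200 nt. A further position at 141863459, with 11 siTRMT6 1 reads, lay just outside that distance. Joined within 500 nt, the regions of PCDH1 had fitted log2 values of 1.18 and 0.78 (edgeR), against 0.66 and 0.77 within 200 nt. PCDH17 had 17 reads in siTRMT6 1 at 57632334 (5' UTR) and 10 in siTRMT6 2 at 57632953 (coding sequence) of chromosome 13 and none listed in the controls. PCDH10 had 9 reads in siTRMT6 2 and 9 in control 1, 75 nt apart in its 5' UTR.

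Clustered protocadherins give each neuron a surface identity; the PCDHA and PCDHG genes join alternative first exons to common last exons. This is visible in the table: 5 positions were each listed for all 15 PCDHA genes or all 22 PCDHG genes that had a position, and 35 of the 78 genes had no other position. The PCDHG positions had 11 reads each in siTRMT6 2 at 141511717 and 141512553 (3' UTR) and 6 in control 2 at 141494847 (coding sequence) of chromosome 5. The PCDHA positions had 6 reads in siTRMT6 1 at 141010453 and 6 in control 2 at 141010495, both in the 3' UTR. These reads cannot be given to a single gene. Positions of a gene's own were listed for PCDHGC3, with 15 reads in siTRMT6 1, and PCDHGB1, with 8 in control 2. PCDHB2 had 7 reads in siTRMT6 1, 5 in control 1 and 6 in control 2 within 95 nt. PCDHB8 (9 reads) and PCDHB9 (11 reads) had siTRMT6 1 reads only; the PCDHB genes are similar in sequence, so reads may have been divided between copies, and PCDHB18, a non-coding member, had 6 reads in control 2.

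The shared exons also set how many genes were listed. Of 259 coding symbols in RefSeq that match the rule 76 had a position (29.3%, against 20.6% of the other coding symbols), and without the clustered protocadherins it was 36 of 206 (17.5%). Coverage by family was uneven: UNC5 receptors had 3 of 4, plexins 4 of 9, laminins 3 of 12 and the unclustered protocadherins 5 of 13, against 2 of 30 integrin symbols, 4 of 44 collagens, 1 of 23 cadherins and 0 of 4 FAT cadherins. Transcript length and level were not taken into account.

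CELSR cadherins, receptors of planar cell polarity and axon tracts, had 4 positions higher and 3 lower in the authors' deposited table. There 49.6% of all positions were higher. CELSR2 had 8 and 9 reads in siTRMT6 1 and 2 and 56 in control 2, on chromosome 1. The control 2 reads lay in coding sequence, with 18 at 109250296, 19 at 109251248 and 19 at 109252771. The fitted log2 value was -1.06 ± 2.53 (SE; edgeR adjusted p = 0.9997). CELSR3 had 13 reads in siTRMT6 1 and 8 in siTRMT6 2, 1 position in the 3' UTR and 1 in the 5' UTR, and none listed in the controls. CDH24, a type II cadherin and the only cadherin proper with a position, had 16 reads in control 2 at 23048007 of chromosome 14.

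**Figure D3:**
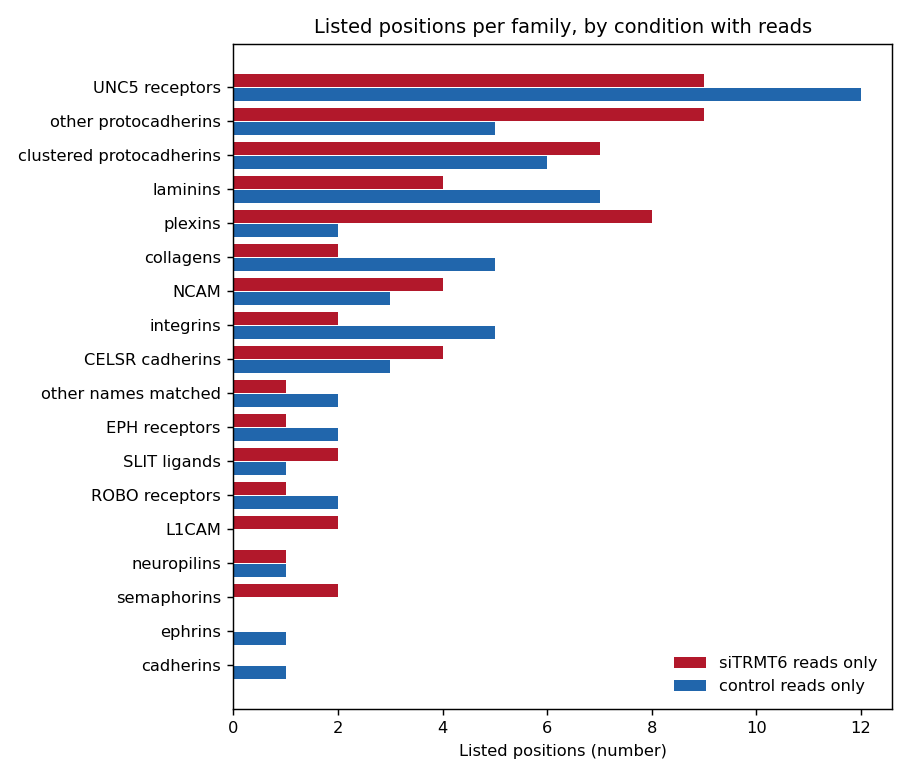
Number of listed positions per family with siTRMT6 reads (red) and control reads (blue); no position had both. UNC5 receptors have 9 and 12, plexins 8 and 2, and laminins 4 and 7. Of all positions 49.6% were listed as higher in siTRMT6 and 50.4% as lower.

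Laminins had 4 positions higher and 7 lower in the authors' deposited table (49.6% of all positions were higher). Collagens and integrins each had 2 higher and 5 lower. These splits move with single libraries: without control 2, 4 laminin positions with siTRMT6 reads stood against 1 with control reads, collagens had 2 against 1 and UNC5 receptors 9 against 5, and without siTRMT6 2 the unclustered protocadherins had 4 against 5. Over all adhesion and guidance positions it was 59 against 13 without control 2 and 19 against 57 without siTRMT6 1. LAMC1, the gamma chain of most laminins, had 18 reads in siTRMT6 1, against 6 and 32 in control 1 and 2, with a fitted log2 of -1.09 ± 2.41 (SE; edgeR adjusted p = 0.9997). It was -0.079 without siTRMT6 2, -1.65 without control 1 and -2.49 with the replicate block. In its 3' UTR on chromosome 1, siTRMT6 1 had 7 reads at 183144803 and control 1 had 6 at 183144817, 14 nt away. The laminin beta chains LAMB2 and LAMB1 had 12 and 8 reads in siTRMT6 1, against 16 and 17 in control 2. No laminin position had siTRMT6 2 reads.

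COL6A1, a chain of collagen VI, had 17 reads at 45990390 and 16 at 45991008 of chromosome 21 in siTRMT6 1 and 11 at 46004012 in control 2, all in coding sequence. COL5A1, of fibrillar collagen V, had 13 reads in control 2 over 2 positions, and COL4A2, of basement membrane collagen IV, had 5 in that library. Among the integrins, ITGA1, a collagen-binding alpha chain, had 6 reads in siTRMT6 1, against 6 in control 1 and 13 in control 2. ITGB5, which pairs with integrin alpha V, had 8 reads in siTRMT6 2 and 8 in each control; the siTRMT6 2 position at 124796782 lay 27 nt from that of control 1 at 124796809 of chromosome 3.

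Nearby bases from different libraries were thus a recurring feature. When positions of a gene within 200 nt were joined, 15 of the 94 adhesion and guidance regions held both conditions (15.96%, against 17.1% of the remaining regions). Within 50 nt it was 11 of 101 (10.9%, against 12.8%). In those 15 regions the summed log2 values on the scale of listed reads ran from -1.07 in SLIT3 to 0.59 in UNC5B, with a median of 0.0021, against a median of -0.15 in the remaining genes. Joining positions of both conditions favours similar numbers in both, so small changes cannot be inferred from it.

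By transcript region, 74 of the 116 positions lay in coding sequence (63.8%, against 64.5% of the remaining positions), 24 in 3' UTRs (20.7%, against 20.5%) and 17 in 5' UTRs (14.7%, against 11.2%). The 5' UTR share was 7.32% in siTRMT6 1 and 15.8% in siTRMT6 2, 30.8% in control 1 and 15.9% in control 2. In the remaining genes it was 11.5% and 12.6% in siTRMT6, 12.9% and 10.2% in the controls. Over the 4 libraries the adhesion and guidance genes were 5.62 percentage points higher (exact sign-flip permutation test, two-sided p = 0.375; the smallest this design allows is 0.125). Leaving out control 1, which had 4 of its 13 positions there, the difference was 1.54.

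**Figure D4:**
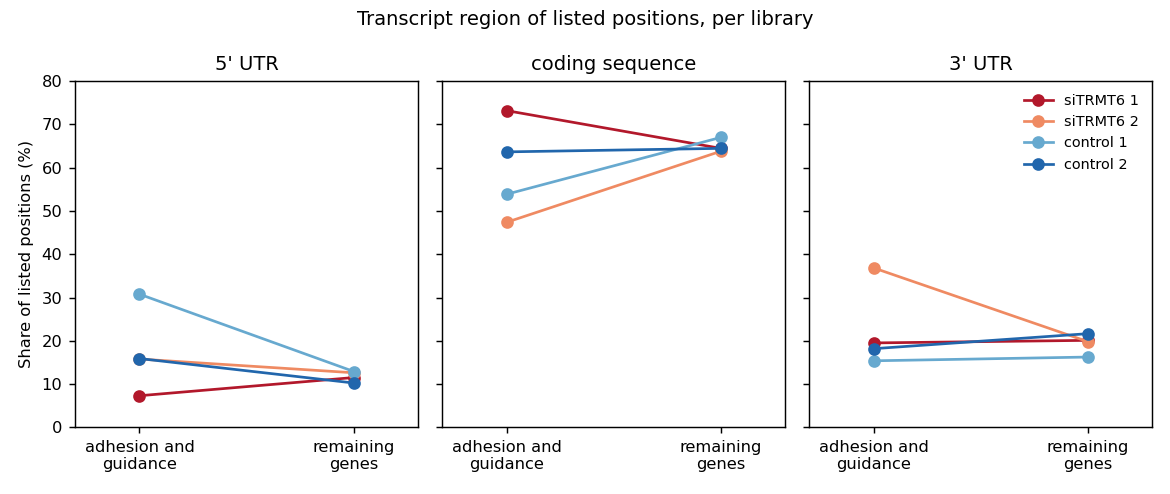
Share of listed positions (%) in 5' UTR, coding sequence and 3' UTR for adhesion and guidance genes (left points) and the remaining genes (right points); each line is 1 library. The 5' UTR share of control 1 (30.8%) and the 3' UTR share of siTRMT6 2 (36.8%) stand apart.

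The 3' UTR share was 19.5% in siTRMT6 1 and 36.8% in siTRMT6 2, 15.4% in control 1 and 18.2% in control 2, a difference of 3.03 percentage points from the remaining genes (exact sign-flip permutation p = 1.0). It was above the remaining genes in 1 of the 4 libraries, and -1.65 without siTRMT6 2. Region also moved with strand: on the minus strand 9 of 41 adhesion and guidance positions were in 5' UTRs (22.0%, against 27.0% of the remaining genes), and on the plus strand 8 of 75 (10.7%, against 5.62%). The part of strand in the region shares was not tested further.

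Partners of these molecules were described from 3 lists. For comparison, 49.6% of all positions were listed as higher in siTRMT6 and 50.4% as lower. Among coding symbols outside the adhesion and guidance rule, 20.6% had a position. The directions within these lists were not tested. Cytoplasmic partners, such as catenins, talin and the collapsin response mediators that relay semaphorin signals, had a position in 29 of 54 genes (53.7%), with 41 higher and 59 lower in the authors' deposited table. DPYSL5, a collapsin response mediator, had 55 and 7 reads in siTRMT6 1 and 2, against 5 and 53 in control 1 and 2. DPYSL2, of the same family, had 23 and 14, against 8 and 61, and PAK4, a kinase acting on the actin skeleton, had 48 and 13, against 0 and 36. Other adhesion receptors and cues had a position in 9 of 55 genes (16.4%), with 12 higher and 17 lower. Among them the teneurin gene TENM3 had 26 reads in siTRMT6 1 and none listed in siTRMT6 2, against 13 in each control. Matrix proteins and collagen enzymes had a position in 8 of 33 genes (24.2%), with 5 higher and 10 lower. SERPINH1, a collagen chaperone, had 18 reads in siTRMT6 1 and none listed in the other libraries. PLOD1, a collagen lysyl hydroxylase, had 8 reads in siTRMT6 1, against 18 in control 2, and AGRN, the proteoglycan agrin, had 19 in control 2 only.

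Of the markers of cell identity, the noradrenergic genes with a position (CHGA, PHOX2A, GATA3, DBH, HAND2 and TH) had summed reads of 208 and 206 in the siTRMT6 libraries, against 73 and 260 in the controls. Of 8 mesenchymal or fibroblast markers 3 had one (42 and 11 reads, against 25 and 12), while COL1A1 and FN1 had none. None of the 5 Schwann cell markers had a position. These are m1A reads and not expression levels, and their part in the gene totals was not tested.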

How the data were processed

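The members and gene lists were chosen with earlier results of these data known. The submitters' processing notes name FastQC 0.11.3, STAR and build hg38; how positions were called, counted and tested is not given in the sources used here. The authors deposited 1 table of 25539 rows with counts per position in 4 columns named by condition and number, the authors' log2 fold change and their raw and adjusted p-values; no header tells m1A from input reads, and the counts were taken as m1A reads. Input values are not used here. Positions are listed from 0 and given here from 1. The table holds only positions that passed the authors' selection on p.

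Genes were summed over 1 record per position and gene. Gene totals, positions and regions (positions of a gene within 200 nt) were fitted over the whole table with edgeR 4.0.16 in R 4.3.3: TMM, filterByExpr with a minimum count of 10, the quasi-likelihood test and Benjamini-Hochberg adjustment. Standard errors are the log2 value over the root of its F statistic. Steps were tested on simulated data, which for edgeR varied far less between libraries than the real gene totals (common dispersion 2.59). Those runs therefore do not show which changes could be found here. Alternatives were DESeq2 1.42.0, other scalings, no filter, a replicate block, single libraries left out, and, chosen after seeing the data, single strands. Named genes were the 30 with most reads, each family's leading gene, positions in several libraries and joined regions with at least 20 reads of both conditions. Further genes, such as PLXNA4, EPHB3, COL4A2, SEMA4C and PCDHB8, were named after their values were seen, to account for the families.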

Additional observations from a re-analysis of the deposited data

How the results depend on the processing

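Of the gene totals, edgeR called 0 genes under every alternative run (other scalings, no filter, the replicate block, each library left out and plus-strand positions only), while DESeq2 called 1, which was no adhesion or guidance gene. Of the joined regions edgeR called 0 under each setting, 50 nt and 500 nt included, and DESeq2 called 1. Of the 9962 positions 34 passed the filter and 22 of those were called; no adhesion or guidance position passed it, so none was tested, and the number called was 0 without the filter, with DESeq2, with the replicate block and without any single library (0 to 0). The labels name no shared day or batch, and the deviations of same-numbered libraries had a correlation of -0.0864 across the genes tested.

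The siTRMT6 minus control difference in the share of positions was 0.605 percentage points at the authors' adjusted p below 0.01, 0.0126 as a share of reads, 0.539 on the minus strand, and -0.347 to 0.210 with single libraries left out. The 3' UTR difference was -3.59 on the minus strand and -1.65 to 5.20 with single libraries left out, and the 5' UTR difference was -4.20 on the minus strand and 1.54 to 8.90 with single libraries left out. The cause was not tested. Single genes also changed sign: CELSR2 was 1.19 with the replicate block. With single libraries left out ITGB5 ran from -6.16 to 0.46, NCAM1 from -0.48 to 7.46 and PCDH10 from -0.70 to 1.21. SLIT3 ran from -0.17 to 6.68 and UNC5A from -0.66 to 0.83. Of those fits PCDH10 passed the filter only in the ones without control 2 and without siTRMT6 1. Without control 2, NCAM1 and SLIT3 had no listed control reads left. Without siTRMT6 2, ITGB5 had no listed siTRMT6 reads left. The values 7.46, 6.68 and -6.16 are therefore not measured folds. UNC5B ran from -2.69 to -1.76 with single libraries left out. The zero of these values moves between fits: the median of all genes tested was 0.27 with all libraries, 6.44 without control 2 and -0.36 to 0.62 without one of the others. Relative to the median of each fit, with single libraries left out, UNC5B ran from -8.35 to -1.89 and NCAM1 from -0.12 to 1.02. SLIT3 ran from 0.10 to 0.82 on this scale. The -8.35 of UNC5B and the 1.02 of NCAM1 came from the fit without control 2, as did 0.24 for SLIT3. As no listed control reads of NCAM1 or SLIT3 remained in that fit, their values there say little of a difference. ITGB5 ran from -7.14 to 0.58, PCDH10 from -7.14 to 1.33 and UNC5A from -6.11 to 0.66, each lowest without control 2. The adhesion and guidance positions had a median of 10 listed reads.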
